A study of Mus musculus with 4 samples.

Results

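The 10 core cardiac transcription factor genes Gata4, Gata6, Nkx2-5, Hand1, Hand2, Mef2a, Mef2c, Mef2d, Srf and Myocd were examined for binding of CTCF, the zinc-finger protein of insulators and chromatin loop borders. A region was taken as near a gene when its summit, the position of highest signal, lay within 50 kb of the gene's span in the mm10 build. By this rule 22 of the 20043 CTCF regions of the control library and 16 of the 16128 regions of the library labelled CTCF knockout were near these genes. The regions came from chromatin immunoprecipitation and sequencing (ChIP-seq) of isolated left ventricular cardiac myocytes of C57BL/6 mice, with 1 CTCF library from control hearts and 1 from hearts labelled CTCF knockout. Each library was a pool of myocytes from 3 hearts. The labels give genotype only as control and CTCF_knockout; the deleted allele, the Cre driver, any inducing agent, the age and the sex are not stated there. With 1 library per genotype there was no replicate and no test between genotypes, and every interval below covers counting error only. In bulk chromatin, binding in fewer cells and less binding per cell cannot be told apart, and lists of CTCF regions carry no expression with which to check the labelled cell type.

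These factors form the network that specifies cardiac muscle and keeps its genes active. GATA zinc-finger proteins, the homeodomain protein NKX2-5, the HAND basic helix-loop-helix proteins and the MADS-box proteins MEF2 and SRF bind enhancers and promoters of contractile genes together, and myocardin is a coactivator that SRF recruits. CTCF binds a long GC-rich motif and, with cohesin, halts loop extrusion, so that its sites often mark the borders within which enhancers reach their promoters.

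Of the 22 control regions 2 overlapped a promoter entry of the RefSeq table (GRCm38.p6; 250 bases before to 50 after a transcription start), a share near the 8.07% of the whole control list, and these are the regions whose sequence can be shown. The promoter table has no entry for Gata4, Gata6, Hand1 and Myocd, so an overlap with their promoters could not be counted. Both regions that overlapped an entry lay on chromosome 17, and each had a counterpart in the library labelled knockout. Only 1 counterpart, that of the first region below, itself overlapped the promoter entry, and the one at Srf did not reach it. The first is 41.3 kb upstream of Nkx2-5, at the start of the long non-coding RNA gene Gm17382. Its promoter (chr17:26886197-26886496, minus strand, 5′ to 3′) is shown because it holds, in capitals and on the printed strand, a match to a CTCF core motif (CC, any base, C, any base, AG, 2 of any base, GGC):
Gm17382: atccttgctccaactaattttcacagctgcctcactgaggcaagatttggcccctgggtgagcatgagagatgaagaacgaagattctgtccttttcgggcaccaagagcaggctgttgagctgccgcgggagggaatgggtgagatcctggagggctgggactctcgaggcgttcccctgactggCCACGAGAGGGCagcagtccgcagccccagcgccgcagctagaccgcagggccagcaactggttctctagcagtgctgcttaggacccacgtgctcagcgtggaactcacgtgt

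The match (chr17:26886299-26886310) lay 2 bp from the summit of the control region and 13 bp from the summit in the other list. Searched on both strands, this core occurred in 2.44% of all 32851 promoters of 300 bases and in 20.9% of the 1251 that hold a control summit. The shorter core AGGNGGC, which can overlap the longer motif, was not in this window and occurred in 29.4% of all promoters. A match is a description of the letters only.

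The second is the Srf promoter. Its 250 bases before the transcription start (chr17:46556163-46556412, minus strand, 5′ to 3′) are shown with 2 CArG boxes, the element that SRF itself binds, in capitals:
Srf: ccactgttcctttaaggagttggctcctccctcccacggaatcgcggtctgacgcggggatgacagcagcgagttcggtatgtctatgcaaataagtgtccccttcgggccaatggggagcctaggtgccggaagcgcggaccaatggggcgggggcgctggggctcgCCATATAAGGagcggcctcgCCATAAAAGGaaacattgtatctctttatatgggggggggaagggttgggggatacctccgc

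The boxes began 82 and 62 bases before the start. A CArG box occurred in 1.63% of the 32851 promoters, and 6 promoters held 2 or more. The control CTCF region did not reach the boxes. It covered the last 20 bases of the window, after the start (chr17:46556113-46556132, printed strand CGCGGTCTCGGCCGCGGCCA), and its summit lay 134 bp after the start. The longer CTCF core was not found in the Srf window. The shorter one occurred once, on the opposite strand, outside the part that the region covered.

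A control region is called kept when a region of the library labelled knockout overlapped it by at least 1 bp and lost when none did, which need not mean that binding was absent. Near the 10 genes 14 of 22 control regions were kept (63.6%, exact Clopper-Pearson 95% interval 40.7 to 82.8), against 69.0% of the whole control list. The interval covers the share of the whole list. The other 8 were lost, against 31.0% of the list. Of the 16 regions of the library labelled knockout, 14 overlapped a control region (87.5%, interval 61.7 to 98.4), against 85.8% of that list, and 2 overlapped none, against 14.2%. The kept regions were spread over 9 genes, each with at least 1. All control regions were kept near Gata6, Mef2a and Srf, at least 1 was lost near Gata4, Nkx2-5, Hand1, Hand2, Mef2c and Mef2d, and Myocd had no region in either list. Thus 3 of 9 genes with a control region had all of them kept and none had all lost. Over the 15961 protein-coding genes with a control region within 50 kb, 41.2% had all kept and 1656 genes had none kept. Such counts depend on the number of regions per gene, which was not matched. Summits of the 14 overlapping pairs were 1 to 85 bp apart, with a median of 20.5 bp, against a median of 26 bp over all kept regions.

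**Figure D1:**
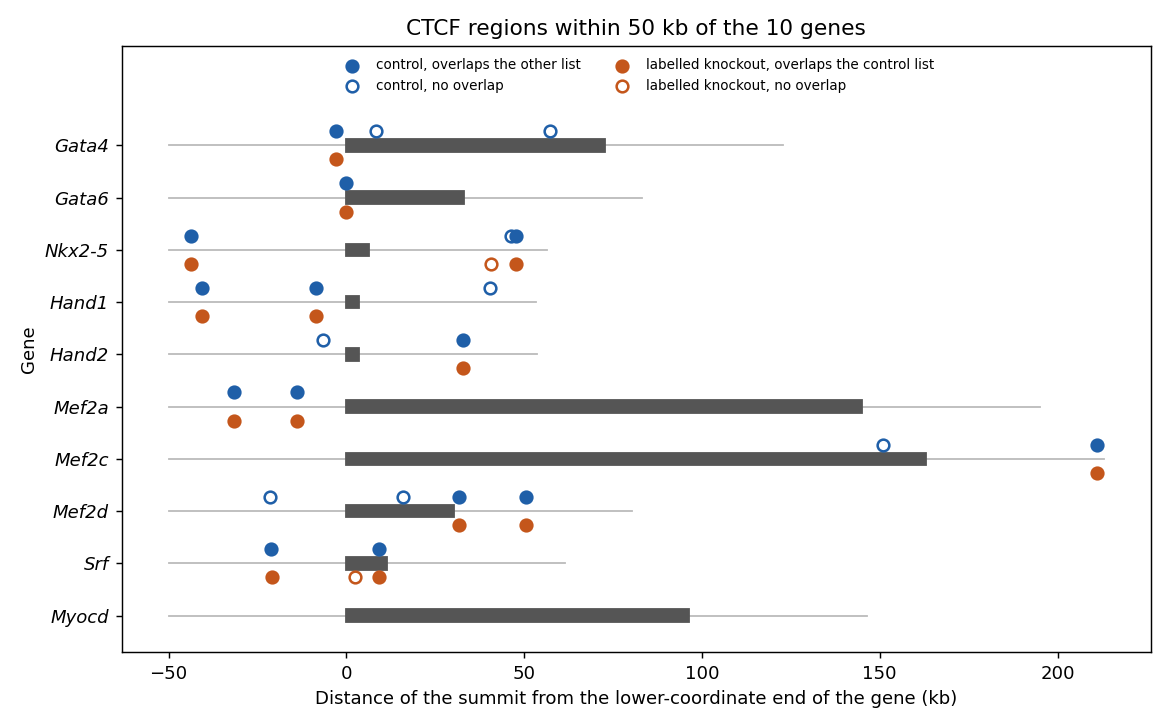
Position of each CTCF summit within 50 kb of the 10 genes, as distance in kb from the lower-coordinate end of the gene (dark bar: gene span; grey line: window; blue above: control; orange below: library labelled knockout; filled: overlaps the other list). The 14 overlapping pairs sit above each other, 8 control regions and 2 regions of the other list stand alone, and the Myocd window is empty.

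The values below are the authors' fold enrichment, a ratio of signal to the background around the region, the −log10 p of each region and its percentile by fold enrichment within its own list. Reads are the pileup at the summit recovered from those values. Values from both lists stand side by side as a description, and no direction is read from them, since each library has its own background.

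Gata4 and Gata6 encode the zinc-finger activators that bind GATA sites in heart enhancers. Gata4 (chromosome 14, 63198914 to 63271712) had 3 control regions, of which 1 was kept. The kept region (chr14:63195850-63196101) lay 2.95 kb outside the lower-coordinate end, between Gata4 and the DNA repair gene Neil2, and had a control fold enrichment of 10.1 (percentile 80.2) from 20 reads. Its partner in the other list had 6.34 (percentile 36.2) from 17 reads. Both lost regions lay within the Gata4 span. The one 8.36 kb from the lower-coordinate end (chr14:63207180-63207330) was the weakest of all 22, with a fold enrichment of 4.65 (percentile 11.5) from 11 reads. The other lost region (chr14:63256003-63256205), 15.6 kb from the opposite end, had 8.47 (percentile 66.9) from 16 reads, and the nearest summit of the other list was 60.1 kb away. The body of Gata4 thus held 2 control regions and none of the library labelled knockout.

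At Gata6 (chromosome 18, 11052510 to 11085636) the single control region (chr18:11052172-11052658) had its summit 47 bp outside the lower-coordinate end, inside the long non-coding RNA gene Gata6os. This was the widest of the 22 regions, at 487 bp, with a fold enrichment of 10.4 (percentile 81.3) from 23 reads. The region of the other list was 161 bp wide, lay wholly within it with a summit 2 bp away, and had 7.69 (percentile 57.0) from 15 reads. Because of the difference in width, this pair was not counted as shared when a reciprocal overlap of at least 50% was asked for.

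Nkx2-5, the homeobox gene of the cardiac lineage (chromosome 17, 26838664 to 26844988), had no CTCF region nearer than 34.4 kb in either list. Kept regions lay on both sides. The one downstream (chr17:26794799-26795019), 43.7 kb away and 2.40 kb from the SNARE gene Bnip1, had a control fold enrichment of 7.98 from 15 reads and 6.44 from 11 reads in the other list. The one upstream is the Gm17382 promoter region shown above (chr17:26886185-26886456), with 9.92 (percentile 78.1) from 21 reads and 7.40 (percentile 53.2) from 20 reads. In the body of Gm17382 each list had a further region that the other lacked. The lost control region (chr17:26884977-26885185) lay 40.1 kb from Nkx2-5 and 1.24 kb from the nearest summit of the other list, with a fold enrichment of 6.55 from 14 reads. The region called only in the library labelled knockout (chr17:26879330-26879473) lay 34.4 kb upstream and had 6.34 from 12 reads.

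Hand1 and Hand2 encode related basic helix-loop-helix factors, known for their roles in the left and the right ventricle of the embryo. Hand1 (chromosome 11, 57828713 to 57832147) had 2 kept regions, both on its lower-coordinate side. The nearer (chr11:57819890-57820276), 8.52 kb away, had a control fold enrichment of 10.8 (percentile 84.3) from 21 reads and 8.78 (percentile 70.5) from 17 reads in the other list. The farther (chr11:57788013-57788175), 40.6 kb away and 0.564 kb from the glycosyltransferase gene Galnt10, had 6.47 from 14 reads and 5.05 from 12 reads. It was no longer kept when a −log10 q of at least 5 was asked for in both lists. On the opposite side a region 36.8 kb from Hand1 within the long non-coding RNA gene Gm33026 (chr11:57868850-57869053) was lost, with a fold enrichment of 5.98 (percentile 34.2) from 11 reads.

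Hand2 (chromosome 8, 57320983 to 57324517) had 1 kept and 1 lost region, each within a long non-coding RNA gene beside it. The lost region lay 6.54 kb upstream within Hand2os1 (chr8:57314258-57314566), the divergent transcript known as Upperhand, which is known for a role in Hand2 expression. It was the strongest lost region of the 8, with a fold enrichment of 11.0 (percentile 85.3) from 21 reads (exact Poisson 95% interval 13.0 to 32.1). In its decile of control fold enrichment 96.3% of all 1977 regions were kept and 74 were lost. The nearest summit of the other list was 39.3 kb away. The kept region lay 29.3 kb downstream within Hdnr (chr8:57353674-57353964), with a control fold enrichment of 13.3 (percentile 93.4) from 27 reads and 8.54 (percentile 66.8) from 21 reads in the other list.

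The 3 MEF2 genes encode MADS-box factors that respond to calcium and stress signals through their class IIa histone deacetylase partners. They differed in how their regions were placed. Mef2a (chromosome 7, 67231163 to 67376456) had 2 control regions, both downstream of the gene and both kept, and none in its body. The protein-coding gene nearest to both was Lysmd4, which lay between them and Mef2a. It was 5.28 kb from the nearer region and 23.0 kb from the farther. The one 13.9 kb downstream (chr7:67217134-67217571), within the non-coding gene 1700112J16Rik, had a control fold enrichment of 12.0 (percentile 89.2) from 33 reads, the highest pileup of the 22. Its partner had 13.0 (percentile 94.2) from 23 reads. The one 31.6 kb downstream (chr7:67199317-67199734) had 9.97 (percentile 79.2) from 19 reads and 13.0 (percentile 93.9) from 29 reads. The partners of these 2 control regions were the 2 strongest regions near the 10 genes in the library labelled knockout.

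Mef2c, the MEF2 gene of the embryonic second heart field (chromosome 13, 83504017 to 83667079), had its strongest region at the edge of the window. This region (chr13:83715014-83715333), 48.1 kb downstream within Gm52046, had the highest control fold enrichment of the 22, 14.0 (percentile 94.9) from 27 reads. It was kept, with 7.37 (percentile 52.9) from 18 reads in the other list. A region within the gene, 12.0 kb from its downstream end (chr13:83654996-83655154), was lost, with 6.82 (percentile 46.2) from 13 reads.

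Mef2d (chromosome 3, 88141941 to 88172091) had 4 control regions, the most of the 10 genes. The 2 kept ones lay downstream. The region 1.52 kb past the gene end (chr3:88173514-88173736), in the non-coding gene 1700113A16Rik, had a control fold enrichment of 8.52 from 21 reads and 5.82 from 13 reads in the other list, with summits 1 bp apart. The region 20.3 kb downstream (chr3:88192150-88192557) had 8.11 from 17 reads and 9.12 from 16 reads. The 2 lost ones lay within Mef2d (chr3:88157855-88158185) and 21.4 kb upstream within Iqgap3, a scaffold protein gene (chr3:88120315-88120670). They had identical values, a fold enrichment of 6.48 and a −log10 p of 10.2, each from 12 reads over the lowest background of the library.

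Srf encodes the MADS-box factor that binds CArG boxes of contractile and immediate early genes, and Myocd its heart and smooth muscle coactivator. Srf (chromosome 17, 46546838 to 46558267) had 2 control regions, both kept. The region beside the transcription start shown above (chr17:46555828-46556132) had a control fold enrichment of 8.47 (percentile 66.9) from 16 reads. Its partner was the weakest of the 16 in the library labelled knockout, with 4.93 (percentile 12.8) from 13 reads, and the pair was no longer shared when either the −log10 q or the fold enrichment had to reach 5. The region 21.1 kb downstream, within the cullin gene Cul9 (chr17:46525644-46525898), had 11.2 (percentile 86.2) from 22 reads and 7.37 (percentile 52.9) from 18 reads. A further region within Srf, 2.52 kb from its downstream end (chr17:46549303-46549439), was called only in the library labelled knockout, with 5.94 from 10 reads.

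Myocd (chromosome 11, 65173608 to 65269989) had no region within 50 kb in either list. Its nearest control region lay 84.6 kb away on the lower-coordinate side and was lost, and on the other side the nearest was 409 kb away. Of the 2302 protein-coding genes with a window within a factor of 1.2 of the 196 kb searched at Myocd, 17.6% also had no control region. Over all 21887 protein-coding genes 27.1% had none. The median number of control regions within 50 kb was 2 for the 10 genes and 2 for all protein-coding genes.

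**Figure D2:**
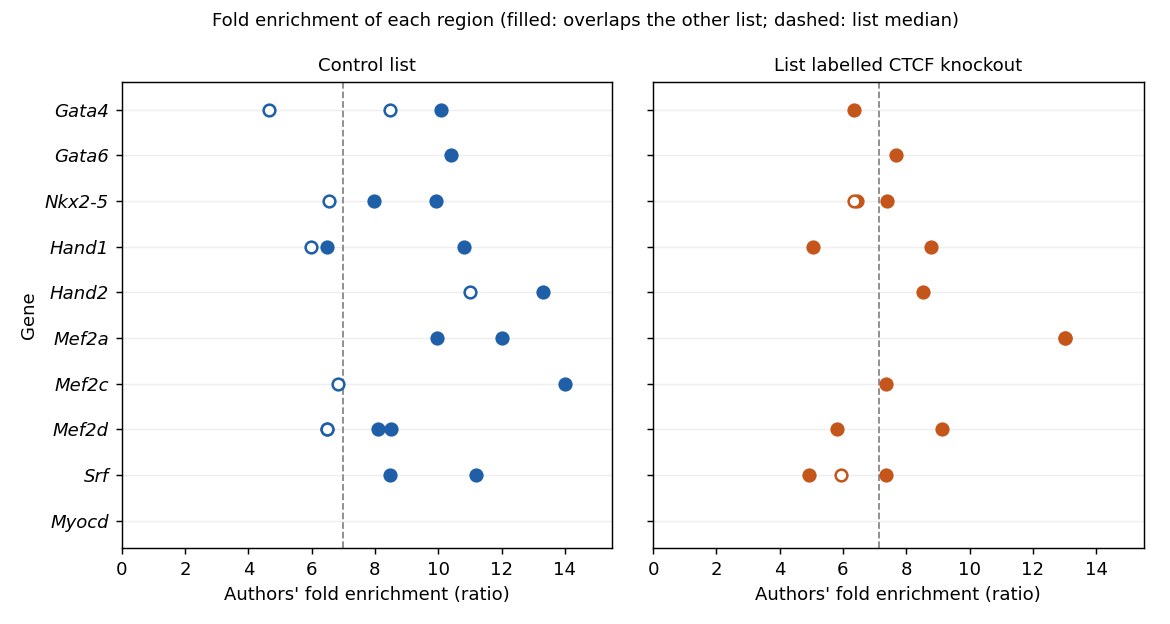
Authors' fold enrichment of every region near the 10 genes, by gene, in the control list (left) and in the list labelled CTCF knockout (right); filled points overlap the other list and the dashed line is the median of the whole list. Most open points of the control list, which overlap nothing, lie below its median of 6.98, with Hand2 at 11.0 and a Gata4 region at 8.47 above it; at Mef2a (right) and Mef2d (lost regions, left) 2 points coincide.

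Regions near the 10 genes were compared with control regions of like strength, since weak regions were lost more often over the whole list. The median control fold enrichment of the 22 regions was 8.50, against 6.98 over the list, and 15 of the 22 were above that list median. The 14 kept regions had a median of 10.0 (6.47 to 14.0), and the 8 lost ones a median of 6.52 (4.65 to 11.0). Over the whole list these medians were 8.14 and 5.48. Among the 7 regions in the weaker 5 deciles of the control list 1 was kept (14.3%), the Hand1 region beside Galnt10, where 48.1% of all such regions were kept. These 7 were not spread evenly. In decile 5, with 63.7% of all regions kept, there were 5, and deciles 4 (57.1%) and 2 (39.4%) held 1 each. Among the 15 in the stronger 5 deciles 13 were kept (86.7%), where 90.5% of all such regions were. Averaged over the deciles in which the 22 regions lie, the share kept in the whole list was 81.7%. The share near the 10 genes was 63.6%; its interval takes no account of strength, and the difference from 81.7% was not tested.

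**Figure D3:**
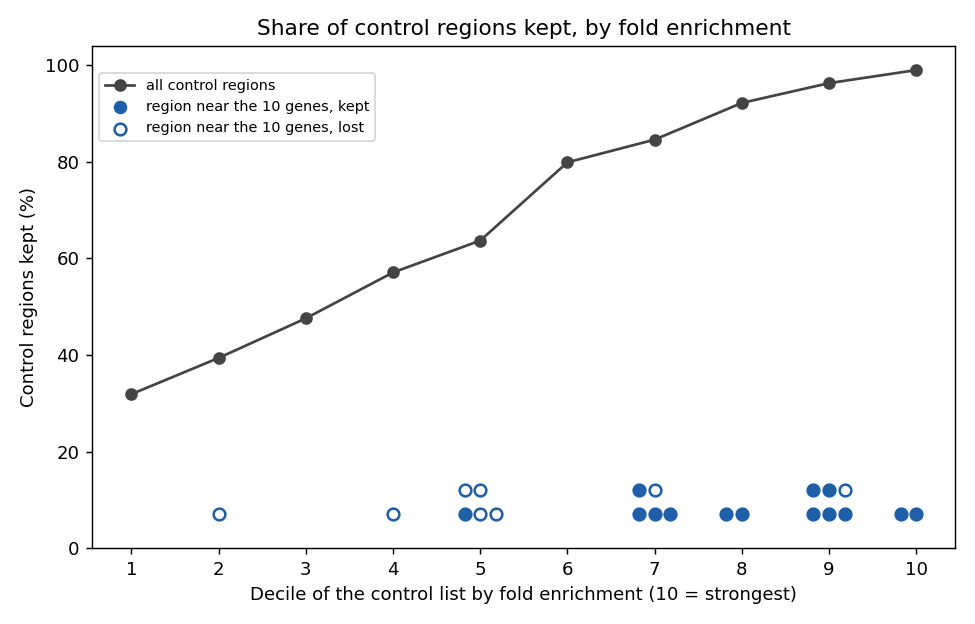
Share of all control regions that were kept (%), by decile of control fold enrichment (line), with the 22 regions near the 10 genes marked in their decile at the bottom (filled: kept, open: lost; their height has no meaning). The share rises from 31.9% to 99.0%, and 5 regions near the 10 genes fall in decile 5, where 1 was kept and 63.7% of all were.

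Kept and lost regions were also counted by place, a description chosen after the values were seen. For the 6 genes with a strand in the promoter table (Nkx2-5, Hand2, Mef2a, Mef2c, Mef2d and Srf), 8 of 8 downstream control regions were kept, 1 of 4 upstream, and 1 of 3 within the gene. Over all protein-coding genes with a strand, counted as pairs of a gene and a region within 50 kb, 72.4% were kept downstream, 72.4% upstream and 65.6% within the gene. Strength was not matched in these counts. The 8 downstream regions had control fold enrichments of 7.98 to 14.0, the 4 upstream 6.48 to 11.0 and the 3 within the gene 6.48 to 8.47. All 8 lost regions had their summit within the span of some gene, 4 of them in the transcription factor gene itself (Gata4, Mef2c, Mef2d), 3 in long non-coding RNA genes and 1 in Iqgap3. Of the kept regions 7 of 14 lay within a gene. In the whole control list 64.6% of lost and 57.1% of kept regions did. The median pileup was 12.5 reads in the 8 lost regions and 21 in the 14 kept ones, and the part of read number in these counts by place was not tested. The lowest pileup called anywhere was 6 reads in each of the lists, which does not give the lowest pileup that could be called at these sites.

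The distances to the next CTCF regions outside each gene show how far the surroundings of each gene were free of them. At Gata4, Mef2a and Mef2c the nearest control region on each side was a kept one. At Nkx2-5 this held downstream, while upstream the nearest, at 40.1 kb, was lost and the next, at 41.3 kb, kept. The kept regions around Nkx2-5 were 91.4 kb apart and held no other whole protein-coding gene between them. Those around Mef2d were 85.7 kb apart and those around Hand1 114 kb, also with no other whole protein-coding gene. Over the 20 gene ends the nearest control region and the nearest kept one lay farthest apart at Hand2, where the nearest control region on the lower-coordinate side was 6.54 kb away and the nearest kept one 705 kb. Kept regions on both sides of Hand2 were 737 kb apart, with no other whole protein-coding gene between them. Around Mef2c the kept regions were 1771 kb apart, because the next region on its upstream side was 1560 kb away in both lists. Around Myocd they were 1223 kb apart and enclosed Elac2, Arhgap44, Map2k4 and Zkscan6. Over all protein-coding genes this spacing had a median of 235 kb and quartiles of 98.6 and 767 kb. Mef2c (percentile 87.0) and Myocd (82.2) thus lay above the upper quartile, and Mef2d (21.2) and Nkx2-5 (22.9) below the lower one.

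**Figure D4:**
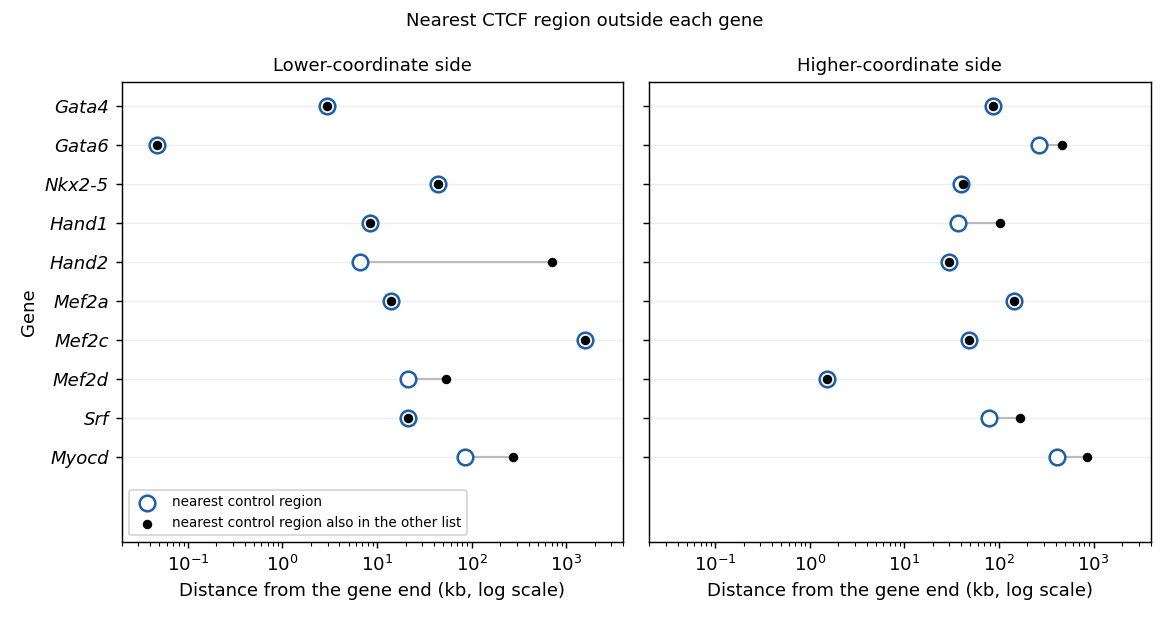
Distance in kb (log scale) from each end of the 10 genes to the nearest control region outside the gene (open circle) and to the nearest control region that was kept (black dot), on the lower-coordinate and higher-coordinate side. Circle and dot coincide for most ends; at Hand2 they are 6.54 and 705 kb away on the lower-coordinate side.

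The window of 50 kb left out some regions just beyond it. The outermost region inside it was the Mef2c one at 48.1 kb. Just outside lay regions 50.1 kb from Hand1 (control fold enrichment 9.30, other list 13.7), 50.8 kb from Nkx2-5 (7.73 and 6.69) and 54.1 kb from Mef2d (10.5 and 8.10), each called in both lists.

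Relatives and partners of the 10 factors were counted by the same rule, from a list of 20 genes that holds family members (Gata5, Mef2b), T-box and LIM-homeodomain factors (Tbx5, Tbx20, Isl1), GATA cofactors (Zfpm1, Zfpm2), SRF cofactors (Mrtfa, Mrtfb) and a modulator of SRF (Hopx), MEF2 repressors (Hdac4, Hdac5, Hdac9), other regulators (Smyd1, Tead1, Prox1, Meis1, Hey2) and downstream genes (Ankrd1, Nppa). Near 15 of them there were 48 control regions, none shared with the 10 genes, and 27 were kept (56.2%, interval 41.2 to 70.5), against 69.0% of the whole list. The interval covers the share of the whole list, and the strength of the regions was not taken into account here. In the library labelled knockout 27 of 35 regions near them overlapped a control region (77.1%), against 85.8% of that list. The strongest kept regions were near Zfpm1 (fold enrichment 17.9), Gata5 (16.1) and Mef2b (12.2), and the strongest lost ones near Tead1 (11.0) and Hdac5 (10.5). Of the 15 genes, 12 had both kept and lost regions, while Zfpm2, Hdac9 and Hey2 each had 1 control region, which was kept. All control regions were thus kept for 3 of 15 genes and none of the 15 had all lost, beside the 41.2% with all kept and the 1656 of 15961 with none kept among protein-coding genes. These counts depend on the number of regions per gene, which was not matched here either. Like Myocd, 5 genes had no control region within 50 kb, namely Tbx5, Tbx20, Isl1, Smyd1 and Prox1; Tbx20 had 1 region in the library labelled knockout.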

How the data were processed

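CTCF ChIP-seq regions of 1 control library and 1 library labelled CTCF knockout were used; the 2 input samples were not used here. The submitters' processing notes name mm10, SAMtools 0.1.19, Bowtie2 2.2.6 and MACS2; for MACS2 the version and settings are not given in these sources. In each deposited list a region carries a fold enrichment (a ratio to background), a −log10 p and −log10 q, a score (10 times the −log10 q, cut to a whole number), and a summit. The authors' lists were called per library, and the lowest deposited −log10 q was 1.32 in the control and 1.37 in the other list. Genes came from a RefSeq table (GRCm38.p6), and strand from its promoter table, which matched 6 of the 10 genes; no entry was found for Gata4, Gata6, Hand1 and Myocd.

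The lists give no depth. If, as in MACS2, the pileup plus 1 is divided by the background plus 1 and p is the upper Poisson tail, whole pileups matched the deposited −log10 p to within 0.001 in 100% of cases; on 1217 simulated regions 100% of pileups were recovered. The lowest background was 1.01 reads in the control and 0.851 in the other list, a ratio of 0.846, which mixes read number and fragment length. Deciles were cut by fold enrichment within the control list. Intervals are exact (95%). All 10 genes and every region within 50 kb of them are named; other genes are named as nearest to such a region or as partners. The genes, lists and settings were chosen with earlier results of these data known. Scripts ran in Python 3.11.15 with scipy 1.17.1, pandas 2.3.3, numpy 2.4.6 and matplotlib 3.10.9.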

Additional observations from a re-analysis of the deposited data

How the results depend on the processing

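No paired analysis was possible because there was a single library of each genotype. The interval of 40.7 to 82.8% around the kept share of 63.6% near the 10 genes held the share under every planned setting. That interval covers counting error only, and the threshold and overlap settings scored nearly the same regions, so this does not measure stability. The kept share was 57.1% where the −log10 q had to reach 5 and 61.9% where the fold enrichment did. It was 59.1% where the overlap had to cover 50% of both regions and 63.6% with summits at most 100 bp apart. A window of 100 kb gave 65.7%, and in a window of 10 kb 5 of 10 regions were kept. For the whole control list the first 4 of these gave 71.6%, 71.3%, 59.8% and 65.2%, against 69.0%. The share of labelled-knockout regions that overlapped a control region ran from 81.2% with reciprocal overlap to 87.5%. Over the whole labelled-knockout list it was 74.3% with reciprocal overlap and 81.0% with summits at most 100 bp apart. It was 83.8% under the −log10 q threshold and 83.2% under the fold threshold, against 85.8% as deposited. The window sets the counts by construction, with 10 control and 6 labelled-knockout regions within 10 kb and 35 and 27 within 100 kb, against 22 and 16. Counts were 21 and 14 under the −log10 q threshold and 21 and 15 under the fold threshold. Single calls changed from kept to lost for Hand1 and Srf (−log10 q), Srf (fold enrichment) and Gata6 (reciprocal overlap). Control pileups of 11 to 33 reads limit the precision of every single call.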
